A study of Mus musculus with 4 samples.

Results

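The major urinary proteins are a family of small secreted lipocalins of the mouse, represented here by the genes Mup1, Mup2, Mup3, Mup4, Mup5, Mup20 and Mup21. Their probes were taken by gene name from the scanner files of liver arrays, control spots apart, and 8 of the 41174 probes carried the name of a member. These 8 probes named 5 of the 7 genes, with 2 probes for Mup1, 1 for Mup2, 3 for Mup3, and 1 each for Mup4 and Mup5. No probe was named for Mup20 or Mup21 or cited a transcript of either, so neither gene has a ratio here. Mup21 appears below only through its upstream sequence.

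The livers came from male C57BL/6J mice that had been made obese (DIO) by 14 weeks of a high-fat diet, with a body weight of at least 40 g. The animals had been bought at 8 weeks of age. Treated mice received porcine GALP (galanin-like peptide, a hypothalamic neuropeptide), 1 nmol in 2 µL of saline with 5% α-cyclodextrin, through the nose once a day for 11 days, and control mice received saline. Both groups kept free access to the high-fat diet during this time. GALP-treated livers formed 2 pools, from 4 mice with greater and 4 mice with less weight loss, and the study's methods describe 1 control pool of 8 saline-treated mice. The sample labels also give the control channel a weight loss group, and it was treated as the same sample on all arrays. Each GALP pool met the control pool on 2 arrays with the Cy5 and Cy3 dyes exchanged, which gave 4 arrays on 1 slide. Arrays 1 and 2 held the pool of mice with greater loss (the greater-loss pool), arrays 3 and 4 held the other (the less-loss pool), and GALP carried Cy5 on arrays 1 and 3.

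Hepatocytes make most of the circulating MUP, which passes through the kidney into urine and carries volatile pheromones in its hydrophobic pocket. Adult male livers make more of it than female livers. The male pattern follows the pulsatile release of growth hormone, which acts on hepatocytes through its receptor, JAK2 and STAT5B, and obesity and feeding state are known to alter the transcripts. The genes lie side by side in a cluster on chromosome 4 and are so alike that probes of 1 gene can bind transcripts of others. The RefSeq table of GRCm38.p6 lists 22 protein-coding genes with a Mup number.

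The probe sequences show how far single members can be told apart. All 7 probes with a position lay on the minus strand of chromosome 4 of mm9, and the files name neither exons nor UTRs. The following 60-base probes of Mup1, Mup2 and Mup5 are shown because they carry the strongest and the weakest mean ratios among the probes with signal. Capitals mark the bases shared, in the same orientation, with another probe of the arrays in a run of at least 16 bases.
Mup1, A_51_P461703, at chr4:60511965-60512188: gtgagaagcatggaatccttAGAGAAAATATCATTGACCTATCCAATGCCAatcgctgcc
Mup1, A_52_P139316, at chr4:60511986-60512168: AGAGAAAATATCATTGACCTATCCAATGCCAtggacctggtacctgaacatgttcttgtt
Mup2, A_52_P348256, at chr4:60151315-60152604: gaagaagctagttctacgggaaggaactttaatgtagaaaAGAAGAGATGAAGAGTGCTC
Mup5, A_52_P412506, at chr4:61496097-61496156: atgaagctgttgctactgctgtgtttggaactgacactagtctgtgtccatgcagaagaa

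The Mup1 probes share 31 bases in a row and then part. They span 224 and 183 bases of the genome, so both cross at least 1 intron. The Mup2 probe spans 1290 bases and also joins spliced exons, and its last 20 bases stand in a probe named for Mup9, which is no member. The Mup5 probe begins with a start codon and shares no run of 16 bases with another probe in the same orientation. The annotation of A_51_P461703 cites transcripts of 3 genes in the RefSeq table, Mup1, Mup7 and Mup15, so its signal belongs to this group and not to Mup1 alone. The other probes that cite a RefSeq transcript each cite 1 gene. Closely related transcripts without a probe can still bind to them, and which genes a signal came from was not tested.

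RefSeq gives an upstream sequence of Mup3 and Mup4 on the minus strand of GRCm38.p6. The 250 bases before each annotated start are printed for this pair, whose probes were lower in the GALP pools. They show how alike the upstream regions of this pair are. The probe of Mup2 was also lower. Its window is not printed and was, in a global alignment, 57.2% identical to that of Mup3 and 69.1% to that of Mup4. Capitals mark TATATAA, which is one form of the core element that positions transcription starts.
Mup3, at chr4:62087318-62087567: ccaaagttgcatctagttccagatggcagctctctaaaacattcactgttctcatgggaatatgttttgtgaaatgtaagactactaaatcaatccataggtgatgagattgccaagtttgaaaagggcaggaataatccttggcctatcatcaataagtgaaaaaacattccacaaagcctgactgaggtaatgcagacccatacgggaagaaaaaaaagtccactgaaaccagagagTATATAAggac
Mup4, at chr4:59960668-59960917: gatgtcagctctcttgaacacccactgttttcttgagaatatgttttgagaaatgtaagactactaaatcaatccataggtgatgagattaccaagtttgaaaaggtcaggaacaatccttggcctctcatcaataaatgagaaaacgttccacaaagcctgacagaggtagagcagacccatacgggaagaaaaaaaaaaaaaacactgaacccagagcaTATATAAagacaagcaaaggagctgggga

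These sequences were 74.9% identical in a global alignment. Over all pairs of member windows, identity ran from 53.5% (Mup2 and Mup21) to 89.1% (Mup3 and Mup21). TATATAA began at base 240 in Mup3 and at base 222 in Mup4, so identity also depends on where each start was annotated. The letters TATATAA were present in all 4 member windows that the table holds (Mup2, Mup3, Mup4 and Mup21), in 11 of its 14 Mup windows, and in 3.26% of the 27025 windows of the same length in the whole table, with 1 window per gene and either strand searched. The motif TTCNNNGAA, the form bound by STAT5, was in 0 of the 14 Mup windows and in 7.18% of all windows. This says only that these letters are not in the 250 bases examined.

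GALP over control was below 1 at every member probe with signal. A probe was taken to have signal when each array showed it well above background in 1 channel or both, and 7 of the 8 did so, in both channels of all 4 arrays. All 7 had a lower GALP than control signal on each array. Of the 15724 probes with signal, 15.7% were below control on all 4 arrays. The 7 probes are not independent, as related transcripts can bind more than 1 of them. The 4 arrays are repeat measurements of 1 control pool and 2 GALP pools. The median over the 7 probes was a log2 ratio of -0.53 in the greater-loss pool and -0.73 in the less-loss pool (0.694-fold and 0.605-fold). The mean of both pools had a median of -0.59 ± 0.14 (SD of the 2 pool medians), beside -0.02 over all probes with signal. Both pools were set against the same control pool, so any deviation of that pool from other control mice is in both ratios, and its own spread is in no SD here. In pooled liver RNA, fewer cells that make a transcript and less of it per cell cannot be told apart.

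**Figure D1:**
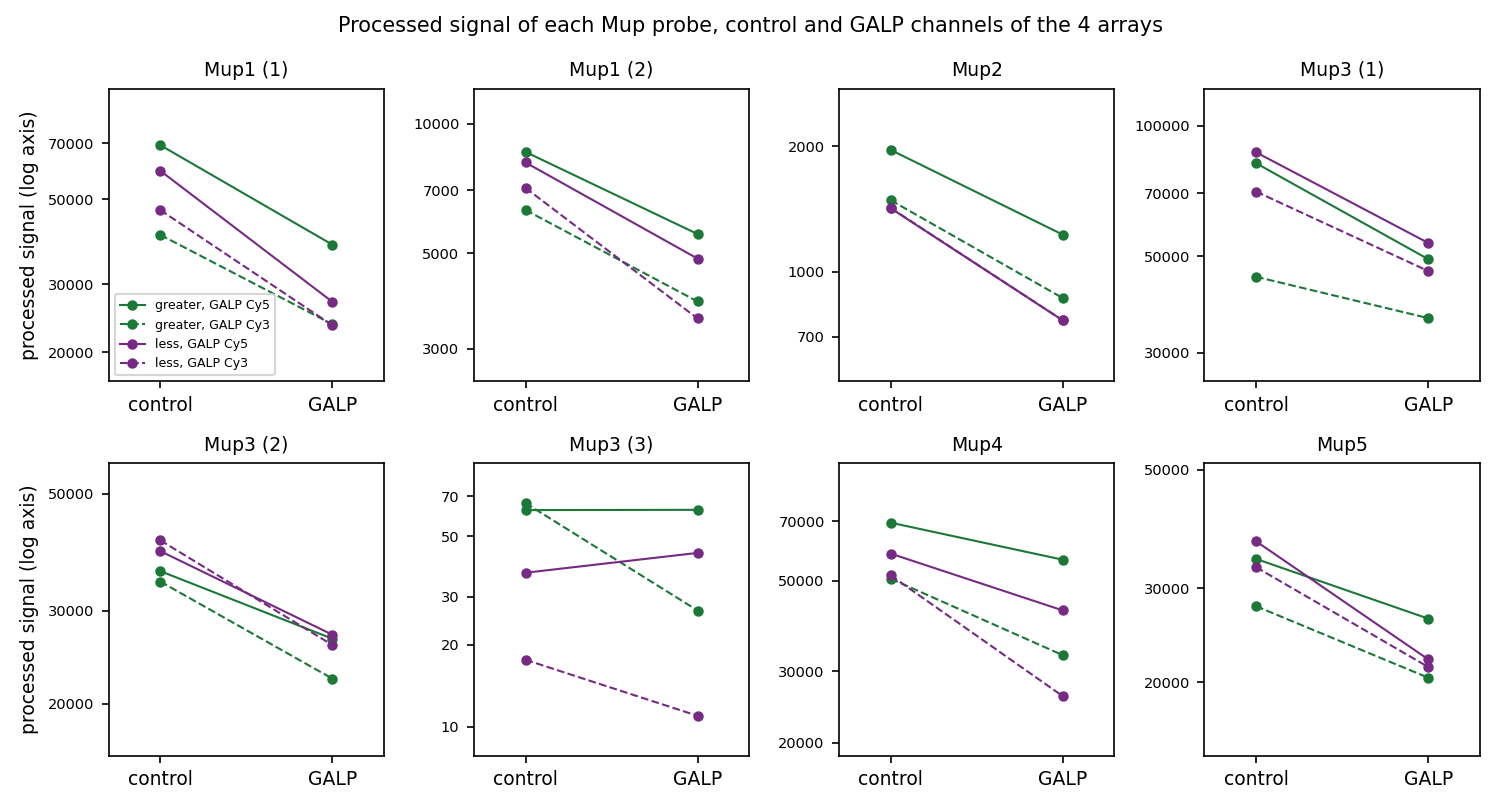
Processed signal (log axis) of each of the 8 Mup probes in the control and GALP channels, with 1 line per array, solid where GALP carried Cy5 and dashed where it carried Cy3, and green for the greater-loss pool and purple for the less-loss pool. Every line falls from control to GALP at 7 probes, and the third Mup3 probe, with signals of at most 66.2, is close to background.

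Mup1 codes for one of the main urinary forms. Its probe A_51_P461703, whose annotation also cites Mup7 and Mup15, had the lowest mean ratio of the member probes. There the control signals on arrays 1 to 4 were 69137, 40378, 59289 and 46855, and the GALP signals were 38076, 23627, 27031 and 23476. Every GALP signal lay under every control signal, with no overlap. Here and below, such signals are repeat measurements of 1 control pool and 2 GALP pools, not of separate mice. How many of all probes show no overlap was not counted, so this and the same statements on the probes below are descriptions only. The log2 ratios were -0.86, -0.77, -1.13 and -0.997, with a mean of -0.94 ± 0.18 (SD, n = 2 pools), or 0.521-fold. The Feature Extraction p-values, which compare the labelled extracts on 1 array, were 8.3e-05, 3.4e-04, 7.4e-07 and 8.2e-06.

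At the other Mup1 probe, A_52_P139316, the control signals were 8602, 6306, 8130 and 7095 and the GALP signals 5545, 3866, 4863 and 3530. These signals did not overlap either. Its log2 ratios were -0.63, -0.71, -0.74 and -1.01, with a mean of -0.77 ± 0.14 (SD, n = 2 pools). This probe cites no gene other than Mup1, and its ratio was close to that of Mup2.

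Mup2 codes for another of the abundant urinary forms. Its control signals were 1961, 1485, 1421 and 1423 and its GALP signals 1228, 865, 765 and 765, again without overlap. The log2 ratios were -0.67, -0.78, -0.89 and -0.90, with a mean of -0.81 ± 0.12 (SD, n = 2 pools), or 0.570-fold. The arrays of the less-loss pool differed by 0.0021 on the log2 scale between dye orientations, which was the closest agreement of a dye pair in the family.

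The remaining genes had smaller ratios. Mup3, whose product is a glycosylated form, had log2 ratios of -0.74, -0.32, -0.69 and -0.61 at A_52_P232508, with control signals from 44875 to 86936 and GALP signals from 36024 to 53729. The lowest control signal was under the highest GALP signal, so these signals overlapped between arrays while each array put GALP lower. The Mup3 probe A_51_P435858 gave -0.43, -0.61, -0.53 and -0.66, and its control signals of 34081 to 40801 stood above its GALP signals of 22308 to 27024. The means were -0.59 ± 0.09 and -0.56 ± 0.05 (SD, n = 2 pools).

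Mup4, a form also made by glands of the nose and eye, had log2 ratios of -0.30, -0.62, -0.46 and -0.99 at A_51_P266883. Its dye orientations differed by 0.52 in the less-loss pool, the widest gap of a pool among the 7 probes with signal, and the mean was -0.59 ± 0.18 (SD, n = 2 pools). Mup5, another member with expression outside the liver, had log2 ratios of -0.37, -0.44, -0.73 and -0.62 at A_52_P412506, with a mean of -0.54 ± 0.19 (SD, n = 2 pools). Its GALP signals of 20396 to 26314 did not overlap its control signals of 27760 to 36737. In the greater-loss pool Mup5 stood at 0.754-fold, just above 0.75-fold, and in the other pool at 0.625-fold. Signals of Mup4 overlapped between channels across arrays, as GALP reached 56313 on array 1 and control fell to 50578 on array 2.

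The third Mup3 probe, A_52_P232507, carries no position in the files and differed from the others. Its control signals were 62.4, 66.2, 36.7 and 17.6 and its GALP signals 62.5, 26.7, 43.4 and 11.0. Of its 4 GALP channels 2 were well above background, and so were 2 of its control channels, and its log2 ratios of 0.0032, -1.31, 0.24 and -0.68 had no common direction. It was left out of the family medians for that reason, and with it included the median was -0.59 as before.

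**Figure D2:**
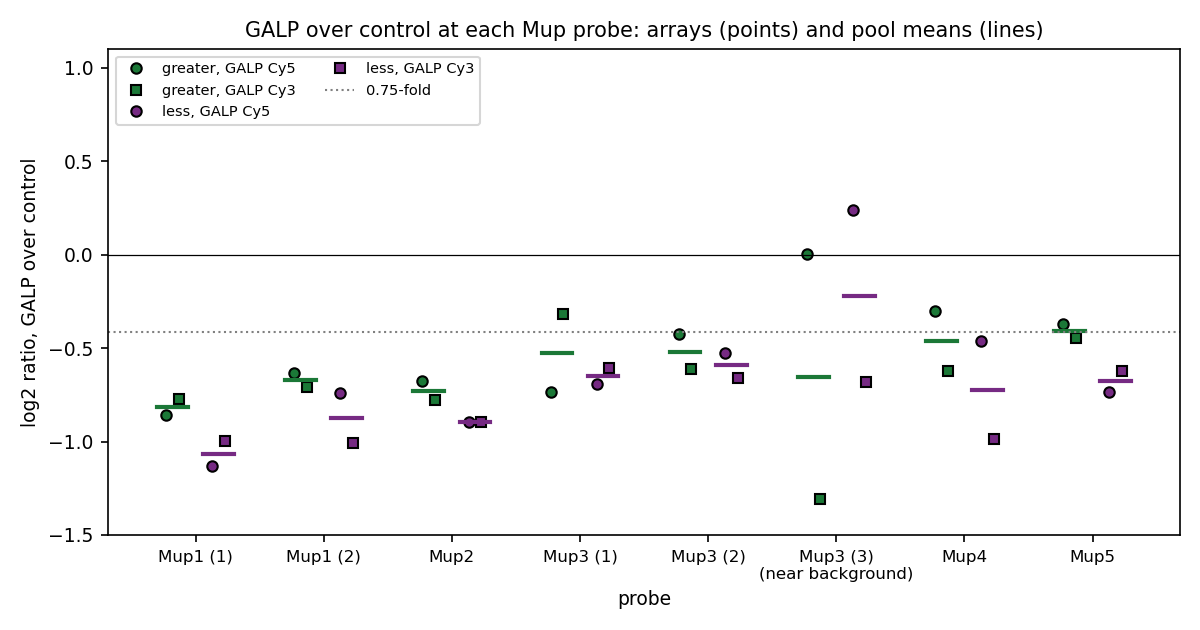
Log2 ratio of GALP over control at each Mup probe, with 1 point per array (circles where GALP carried Cy5, squares where it carried Cy3) and a line for the mean of each pool, the dotted line marking 0.75-fold. At 7 probes all points lie below 0 and the purple line of the less-loss pool lies under the green line, while the probe near background scatters on both sides of 0.

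The study's methods select changes with a Feature Extraction p-value under 0.01 and a fold over 1.5 or under 0.75 common to both groups. This was read as p under 0.01 and the same direction on all 4 arrays with the fold met in each pool. Over all probes this reading called 24 higher and 54 lower. The first count is far below the number of genes that the study reported as increased, while the second is near its number decreased. Under this rule, 3 of the 8 member probes were called lower, namely both probes named for Mup1 and that of Mup2, against a background of 0.132% of the 41037 probes with a value on all arrays. None was called higher, where the background was 0.0585%. Probes of Mup3, Mup4 and Mup5 were not called. The Mup3 probe A_52_P232508 passed the p-value on 3 arrays and missed it on array 2, where its ratio was nearest to 0. The Mup3 probe A_51_P435858 and the probes of Mup4 and Mup5 each passed it on 2 arrays.

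Without the p-value, 6 of the 7 probes with signal were lower on all 4 arrays and under 0.75-fold in both pools, beside 1.63% of the probes with signal. Mup5 was the exception through the greater-loss pool. By limma, with the 2 pool ratios tested against 0, 0 of 8 member probes passed an adjusted p of 0.05, as did 0% of all 41037 probes. The adjusted p over all probes ranged from 0.374 to 0.479 for the 7 probes with signal. At an unadjusted p under 0.05, 5 of the 8 member probes were lower (both Mup1, Mup2 and both Mup3 probes with signal), beside 6.6% of all probes. On ratios corrected by normexp and loess instead of the deposited ones, 5 member probes passed (the same 5 probes, with limma adjusted p from 0.026 to 0.038), beside 0.18% of all probes called lower.

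The dye correction changed the ratios of single arrays more than their mean. With normexp and median centring but no loess, the family median was 0.27 and -0.10 on the arrays with GALP in Cy5 and -1.08 and -1.14 on those with GALP in Cy3, and 1 of 7 probes was below control on all 4 arrays. The mean over both orientations was negative at each of the 7 probes, from -0.29 at Mup5 to -0.82 at the first Mup1 probe. The rule, applied to these ratios with the deposited Feature Extraction p-values unchanged, then called 1 member probe, A_51_P461703. The software had used 6 of the 8 member probes in fitting its own dye correction on at least 1 array.

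**Figure D3:**
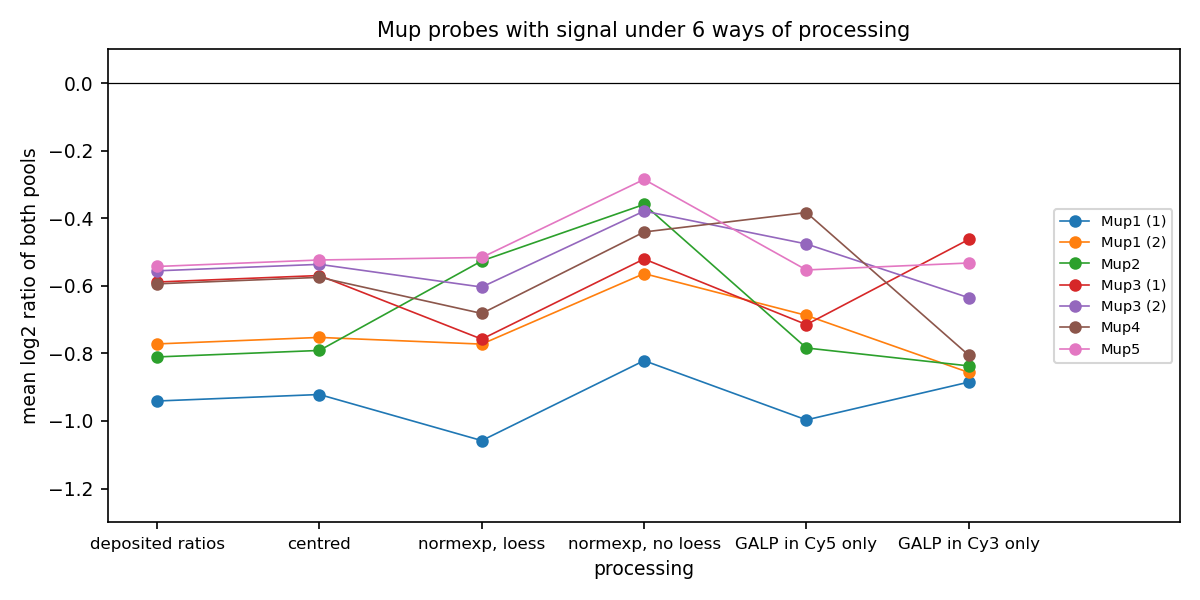
Mean log2 ratio of both GALP pools at each of the 7 Mup probes with signal under 6 ways of processing the arrays (points, 1 colour per probe, lines joining the same probe). All points lie below 0, with a median of -0.59 for the deposited ratios and of -0.44 without loess, and the first Mup1 probe is the lowest under each of these ways.

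GALP over control was lower in the less-loss pool at each probe with signal in the deposited ratios. The log2 ratio in the greater-loss pool minus that in the less-loss pool was positive at 7 of 7 probes with signal, from 0.07 at Mup3 A_51_P435858 to 0.27 at Mup5, with a median of 0.20. It was positive at 6 of 7 probes with normexp and loess, without loess, and with GALP in Cy5 only, and its median without loess was 0.13. Among all probes with signal, 53% were lower in that pool, and the median difference was 0.01. Each pool is a single sample, so this difference has no replicate and no test, and at 4 of the 7 probes it was smaller than the gap between dye orientations within a pool. That gap ranged from 0.0021 to 0.52.

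Probes named for other Mup genes, which are no members here, gave similar values. The Mup6 probe had a mean log2 ratio of -0.68 ± 0.15 and the Mup11 probe of -0.67 ± 0.12 (SD, n = 2 pools), both lower on all 4 arrays and neither called. The SD leaves out the dye orientations, between which Mup6 differed widely. Its ratios on the arrays in order were -0.27, -0.88, -0.30 and -1.27, with the Feature Extraction p-value under 0.01 on 2 arrays. The Mup9 probe that shares 20 bases with that of Mup2 was marked as an outlier on array 4 and had log2 ratios of -0.33, -0.87 and -0.40 on the others.

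Genes that carry the growth hormone signal, and other genes with a sex bias in liver, give the setting of the family. Of 18 genes of the growth hormone and STAT5 axis, 17 had signal and none was called, with a median log2 ratio of 0.02 (mean of both pools). The receptor Ghr stood at -0.09 ± 0.11, the transcription factor Stat5b at -0.15 ± 0.08, and the growth factor Igf1, a STAT5 target, at -0.03 ± 0.08 (SD, n = 2 pools). Socs2 and Cish, feedback inhibitors that STAT5 induces, stood at 0.32 ± 0.29 and 0.27 ± 0.59. Bcl6, a male-biased transcriptional repressor, was at 0.16 in the greater-loss pool and at -1.15 in the less-loss pool. Zhx2, a regulator of liver genes, had no signal.

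Of 15 male-biased liver genes, 12 had signal, 5 were lower on all 4 arrays, beside 14.5% of all genes with signal, and 3 were called lower, Hsd3b5, Moxd1 and Elovl3, beside 0.147% of all genes. The study had already reported these 3 genes as decreased, and the list was chosen with earlier results of these data known. Its shares are therefore a description and no test. Hsd3b5, a steroid dehydrogenase, had log2 ratios of -1.81, -1.70 and -4.32 on arrays 1 to 3, and on array 4 its GALP signal was not well above background. Elovl3, a fatty acid elongase, had -0.77, -1.01, -1.34 and -1.68. Moxd1, a monooxygenase-like protein, had -1.21 on both arrays of the greater-loss pool. In the other pool its GALP signal was not well above background, which makes it at least 10.1-fold lower there. Cyp2d9, Cyp4a12a and Cyp7b1, cytochromes P450, were not called. Selenbp2, a selenium-binding protein, and Egfr, a growth factor receptor, stood at 0.93 and 0.44 in the greater-loss pool and at -0.08 and -0.48 in the less-loss pool. The list had a median of -0.12 in the greater-loss pool and of -0.51 in the less-loss pool, and 11 of the 12 genes were lower in the latter, beside 52.6% of all genes with signal, as were all 7 Mup probes with signal.

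Most female-biased liver genes had ratios above 0. Of 18, 17 had a probe and 14 had signal, and 11 of these 14 were higher on all 4 arrays, beside 12.8% of all genes with signal, with a median log2 ratio of 0.46. Cyp2c40, a cytochrome P450, and Prlr, the prolactin receptor, were near 0 (-0.03 and 0.02). One gene was called higher, beside 0.0754% of all genes. It was Acot3, an acyl-CoA thioesterase named here after its value was seen, at 1.07 ± 0.12 (SD, n = 2 pools). The female-biased list was also chosen with earlier results of these data known, so its shares are no test either. Cyp2b9 and Cyp2b13, cytochromes P450 of female liver, stood at 0.43 ± 0.32 and 0.51 ± 0.27 and were not called at the probe with the highest signal, while the other Cyp2b13 probe was called higher.

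Relatives of the family by structure or by abundance had list medians closer to 1-fold. Of 13 other lipocalins, 9 had signal, none was called, and the median log2 ratio was -0.07, from -0.27 to 0.63 at Lcn2, an acute-phase lipocalin. Of 12 abundant proteins that hepatocytes secrete, 11 had a probe with signal and none was called, and their median was 0.01, from -0.14 to 0.20. Alb, serum albumin, was at 0.05 ± 0.09 (SD, n = 2 pools). Over all 11378 genes with signal, at 1 probe each, the median was -0.01.

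**Figure D4:**
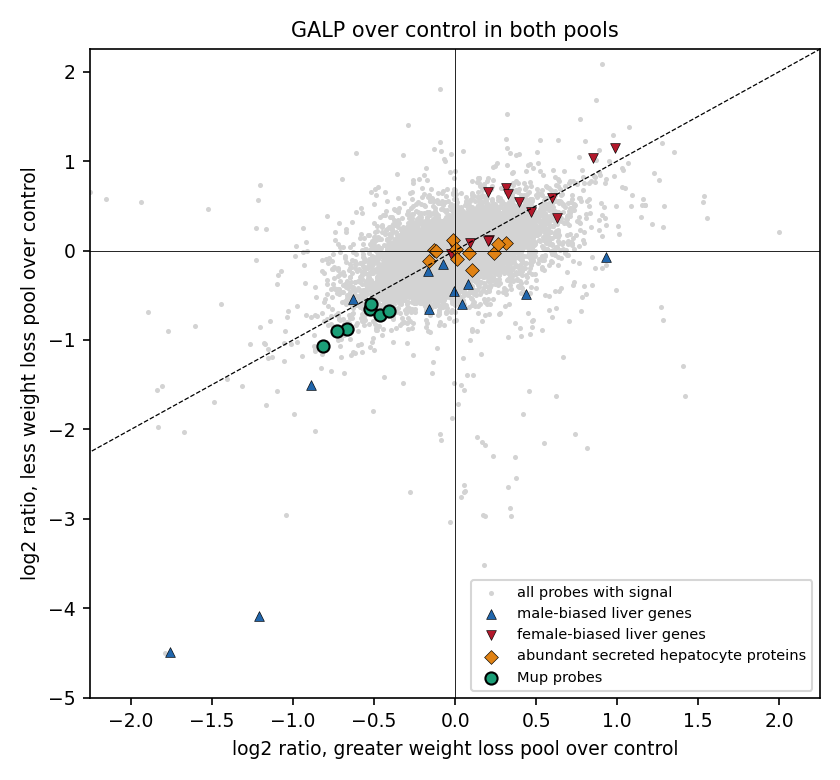
Log2 ratio of GALP over control in the greater-loss pool (x axis) and the less-loss pool (y axis), for all probes with signal (grey), the 7 Mup probes, and male-biased, female-biased and secreted protein genes with signal, where 54 grey probes lie outside the axes. The Mup probes lie below 0 on both axes and under the dashed line of equal ratios, between the lowest male-biased genes, Hsd3b5 and Moxd1, whose GALP signal was not well above background on 1 and 2 arrays of the less-loss pool, and the secreted proteins near 0.

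**Figure D5:**
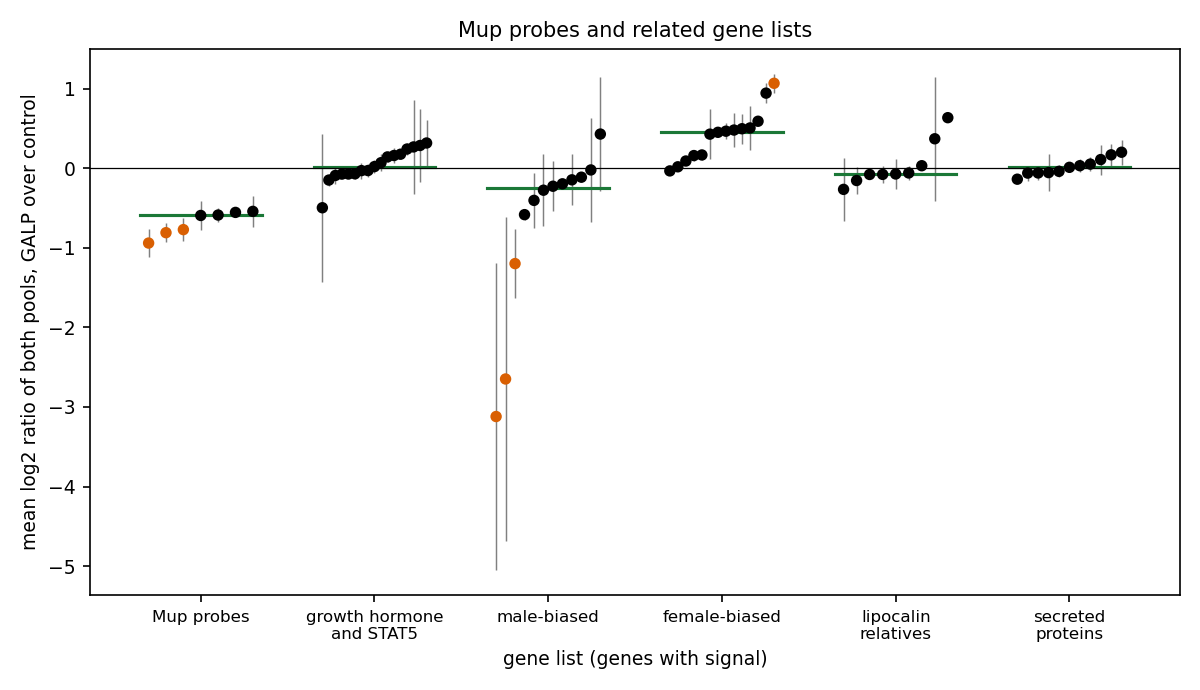
Mean log2 ratio of both GALP pools for the Mup probes and 5 gene lists, as points with the SD of the pools, orange where the rule called the probe and black where it did not, and a green line at each median. The Mup probes have a median of -0.59, the lowest male-biased points are Hsd3b5 and Moxd1, with GALP not well above background on 1 and 2 arrays, and the secreted proteins lie close to 0.

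By the rule of smallest distance over the 4 arrays, the 5 probes closest to the mean pattern of the Mup probes, out of 14446 probes well above background in every channel that are not members, were an unnamed transcript (ENSMUST00000103749.2), Ddc, Stk38l, Insig1 and Gpam. Their distances ran from 0.05 to 0.16 on the log2 scale. Ddc, which makes dopamine and serotonin, had ratios of -0.66, -0.55, -0.73 and -0.89, beside a Mup mean of -0.57, -0.61, -0.74 and -0.82. Of these 5, Ddc, Insig1 (a sterol-sensing protein) and Gpam (an enzyme of triglyceride synthesis) were called lower.

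Signals of markers of other tissues differed between the pools. The summed signal of 5 pancreas markers was 8226 and 5395 in the GALP channels of the greater-loss pool, 103813 and 98601 in those of the less-loss pool, and 54806 to 74366 in the control channels. The sum over 5 skeletal muscle markers was 2275 and 1678, then 263 and 325, with 1363 to 1616 in control. Hepatocyte markers summed to 106149 to 143193 in GALP and 99798 to 135275 in control channels, and all 5 with a probe, Alb, Ttr, Apoa1, Cps1 and Hnf4a, were well above background in every channel. Markers of salivary and lacrimal glands, which also make some MUPs, had 1 of 4 genes with signal (Amy1, at 0.0034), and Dcpp1 was not above background in any channel. Kupffer cell, endothelial, stellate and bile duct markers had median log2 ratios of 0.14, 0.08, 0.32 and -0.12. Among them Marco, a macrophage scavenger receptor, and Lyve1, a hyaluronan receptor of the sinusoidal endothelium, were called higher, at 0.87 ± 0.25 and 0.74 ± 0.05 (SD, n = 2 pools). Col1a1, a collagen of activated stellate cells, stood at 0.66 ± 0.23 and was not called. The median log2 ratios in the greater-loss and less-loss pools were -3.36 and 0.79 for pancreas. For muscle the median was 0.34 in the greater-loss pool. In the less-loss pool Acta1 and Tnnt3, the muscle markers above background on all arrays, stood at -2.65 and -2.88, while the GALP signal of Ckm, Mylpf and Myh4 was not well above background on 1, 1 and 2 of its arrays. The Mup ratios were below 0 in both pools. The part of these cells and tissues in the Mup ratios was not tested.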

How the data were processed

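The authors extracted the scans with Agilent Feature Extraction, version 12.0.3.1 per the file headers and 11.0.1.1 in the submitters' processing notes. It subtracted background, corrected the dyes by LOWESS and wrote, per spot, the deposited intensity of either channel, the deposited log10 value of Cy5 over Cy3, and the deposited p-value for it. The labels describe an acclimatization of 2 weeks. Both dye arrays of a pool carry the same extracts and were averaged as 1 replicate.

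Log10 ratios were turned to log2 of GALP over control, and spots marked as outliers were not used. Each array held 43379 spots, 40.5% to 46.7% of them well above background per channel and 0 saturated. The number of arrays limits the precision, and p-values measure the spread between 2 pools, with 1 residual degree of freedom. limma 3.58.1 in R 4.3.3 was fitted to all 41037 probes with Benjamini-Hochberg adjustment. The procedures were run on simulated data with changes larger than those of the Mup probes, so recovery of changes of their size was not tested. Gene lists used the probe of highest mean signal per gene. Every member was named at every probe, with the 5 nearest probes by Euclidean distance. The limit for Moxd1 used the lowest GALP signal well above background on each array. Sequences came from the array files and RefSeq, with Biopython 1.88 for alignment. Members and lists were chosen with earlier results of these data known. Alternatives were normexp (offset 50) with and without loess, centring, the series table, outlier marks, single dye orientations, single pools, other p rules and probe choices, and other limma fits. Python 3.11.15, numpy 2.4.6 and pandas 2.3.3 were used.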

Additional observations from a re-analysis of the deposited data

How the results depend on the processing

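Of the 49 values of the 7 probes with signal under 7 other ways of obtaining ratios, 49 were below 0, from -1.06 to -0.29, and 12 moved by over 1 SD of their pools. Most of these ways could hardly change a sign. The series table and the unfiltered spots repeat the deposited ratios, and centring gave a family median of -0.58. Single dye orientations use arrays on which all 7 probes were already below 0. Only the normexp settings recomputed the ratios from the raw signals. In the rule they kept the Feature Extraction p-values of the deposited ratios, so only fold and direction were redone. The 3 called probes became 1 with normexp and no loess, 5 with GALP in Cy3 only, 6 with p under 0.01 on 1 array of each pool, 6 with no p-value, and 3 to 5 in a single pool. The family median of -0.59 became -0.44 without loess, where the median of all probes with signal shifted to 0.10, and -0.81 with GALP in Cy3 only. The difference between pools of 0.20 became 0.16 with normexp and loess and 0.13 without loess, and 6 of 7 probes were then lower in the pool with less weight loss. By limma, 0 member probes passed with a trend, with probes with signal only and with 4 arrays and the pool as a random block (lowest adjusted p 0.530, 0.131 and 0.055), and 5 passed on normexp and loess ratios. Over all probes, limma called 0 with the deposited ratios, 58 higher and 74 lower with normexp and loess, and 39 higher and 67 lower with the block. The correlation estimated for the block was -0.39. A negative value lowers the standard errors, and this fit also counts dye repeats of the same extracts. Its calls and adjusted p are therefore not comparable with those from the pools. The rule called 24 higher and 54 lower with the deposited ratios, 9 and 26 with normexp and loess, and 18 and 11 without loess (37.9% lower instead of 69.2%). The Mup3 probe near background turned to 0.0064 without loess and to 0.12 with GALP in Cy5 only. Including Mup6 and Mup11, or leaving out both Mup1 probes, which were tried after the values were seen, gave -0.67 and -0.59. The causes were not tested. No paired analysis was possible because the replicate numbers of the labels name dye orientations of the same extracts.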
